A study of Mus musculus with 10 samples.

Results

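Liver of mice carrying an SREBP-2 transgene was compared with liver of their wild type littermates. The comparison used 4 of the 10 arrays of the series, namely the 2 arrays titled for the human SREBP-2 transgene and the 2 arrays titled for the wild type mice of the same study. All 12411 probe sets other than the 66 array controls were tested. TgSREBP-2 mice carried the transcriptionally active nuclear form of human SREBP-2. These mice and their littermates were males aged 12 to 16 weeks. For 2 weeks all of them ate the high protein/low carbohydrate diet that drives the transgenes to high expression. The sources used here do not give the promoter of the transgene. TgSREBP-1a mice, which carried the nuclear form of human SREBP-1a and had the same age, sex and diet, were used for a direct comparison of the lines. Scap-/- mice (Scap-/-;MX1-Cre, in which Cre is induced in liver by injection of polyinosinic-polycytidylic acid) and their wild type controls were males aged 10 to 12 weeks on Teklad chow. Both of those groups, controls included, had 4 injections, and livers were taken 14 days after the last one. Each of the 5 groups was 1 RNA pool of 5 livers, hybridised to 2 arrays. Every p-value therefore sets a difference between pools against hybridisation error and carries no information on the spread between mice.

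SREBP-2 is a transcription factor made as a precursor in the endoplasmic reticulum membrane. When membrane sterol is low, the escort protein SCAP carries it to the Golgi, where proteases release the part that enters the nucleus. It is best known for raising the enzymes that turn acetyl-CoA into cholesterol. A transgene for the nuclear part does not need SCAP or the proteases, so the usual brake by sterols is bypassed.

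The deposited values are log2 levels, on which a difference of 1 is a 2-fold change. Array medians lay between 5.625 and 5.662. The TgSREBP-2 duplicates correlated at 0.9891 and the wild type duplicates at 0.9944. Of these 4 arrays the first TgSREBP-2 array stood apart. Its correlations with the wild type arrays were 0.9837 and 0.9834. The second TgSREBP-2 array had 0.9908 and 0.9915 with them, both higher than with its own duplicate. Duplicates also differed elsewhere in the series, with 0.9871 for the wild type of the Scap study. Transcripts that define hepatocytes were present on all 4 arrays. Apoa1 read 13.39 and 13.29 in wild type and 13.32 and 12.22 in TgSREBP-2. Of 4 measured hepatocyte markers 0 were called, where 0.5% of all probe sets were. The mouse Srebf2 probe set was dim, at 3.59 and 3.58 in wild type and 3.86 and 3.62 in TgSREBP-2.

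Calls required both an adjusted p under 0.05 (limma, two-sided, Benjamini-Hochberg over all 12411 probe sets) and a change of at least 1.5-fold. In TgSREBP-2 liver 62 were called, 0.5% of those tested, of which 42 rose (0.338%) and 20 fell (0.161%). The rises were the larger: 29 were at least 2-fold and 7 at least 4-fold, against 9 and 0 of the falls. The arrays of the groups did not overlap for any of the 62, a separation also seen for 40.0% of all probe sets. Rising probe sets had a median wild type level of 6.07 and falling ones of 7.2, against 5.65 over all. At an unadjusted p under 0.05 there were 983 probe sets. The median standard error of a log2 change was 0.115, and the median change over all probe sets was -0.02. The number of calls depended on the arrays used: leaving out the first wild type array gave 25 and leaving out the second gave 28, while omission of the first TgSREBP-2 array gave 39 and of the second 124.

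**Figure D1:**
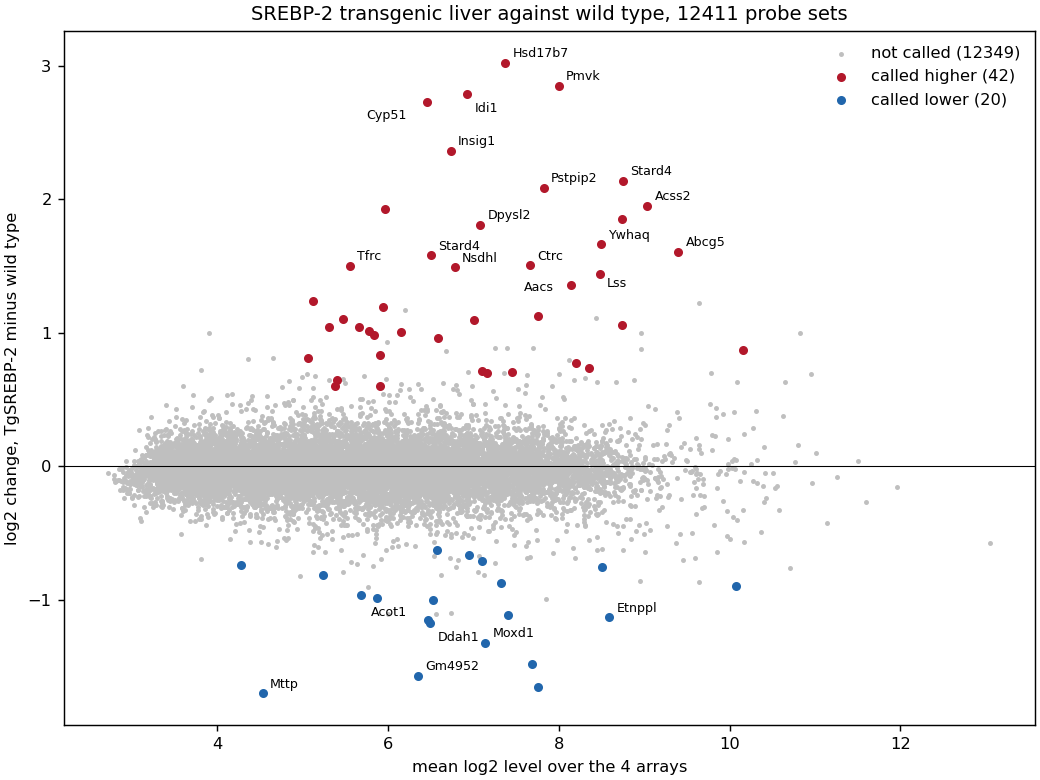
Change against level for all 12411 probe sets. The x axis is the mean log2 level over the 2 wild type and 2 TgSREBP-2 arrays, and the y axis is the log2 change, TgSREBP-2 minus wild type; each point is a probe set. The 42 called rises reach 3.02 and include Hsd17b7, Pmvk, Idi1 and Cyp51, while the 20 called falls reach -1.7.

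To show the CCAAT boxes of sterol genes that rose, the 250 bases before the annotated start are given for 5 of them (RefSeq, GRCm38.p6, written along the strand of the gene). SREBPs bind weakly alone and are known to work beside NF-Y, a factor of the CCAAT box. Capitals mark CCAAT, which reads ATTGG where it lies on the other strand. The windows are chr13:8885356-8885605 (plus strand) for Idi1, chr5:4104698-4104947 (minus) for Cyp51, chrX:72918271-72918520 (plus) for Nsdhl, chr1:169969206-169969455 (minus) for Hsd17b7 and chr5:28071162-28071411 (plus) for Insig1.
Idi1: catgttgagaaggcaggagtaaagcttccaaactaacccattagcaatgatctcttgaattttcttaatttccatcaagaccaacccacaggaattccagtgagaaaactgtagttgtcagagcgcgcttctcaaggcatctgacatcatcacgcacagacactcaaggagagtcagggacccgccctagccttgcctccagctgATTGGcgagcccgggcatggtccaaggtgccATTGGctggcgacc
Cyp51: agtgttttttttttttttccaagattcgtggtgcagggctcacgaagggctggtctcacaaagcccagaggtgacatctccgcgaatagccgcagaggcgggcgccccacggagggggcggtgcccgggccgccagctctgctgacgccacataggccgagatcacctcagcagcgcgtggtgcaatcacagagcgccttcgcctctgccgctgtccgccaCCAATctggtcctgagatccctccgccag
Nsdhl: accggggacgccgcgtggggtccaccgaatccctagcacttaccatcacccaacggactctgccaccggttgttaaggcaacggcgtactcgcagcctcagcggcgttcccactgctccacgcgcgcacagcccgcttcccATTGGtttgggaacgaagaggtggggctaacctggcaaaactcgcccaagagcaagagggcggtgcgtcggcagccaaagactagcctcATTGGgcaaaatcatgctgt
Hsd17b7: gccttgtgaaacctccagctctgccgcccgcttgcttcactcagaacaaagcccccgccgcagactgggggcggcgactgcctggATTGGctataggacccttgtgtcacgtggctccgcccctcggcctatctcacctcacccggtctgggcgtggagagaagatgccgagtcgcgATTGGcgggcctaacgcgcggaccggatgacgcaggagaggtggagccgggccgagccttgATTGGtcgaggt
Insig1: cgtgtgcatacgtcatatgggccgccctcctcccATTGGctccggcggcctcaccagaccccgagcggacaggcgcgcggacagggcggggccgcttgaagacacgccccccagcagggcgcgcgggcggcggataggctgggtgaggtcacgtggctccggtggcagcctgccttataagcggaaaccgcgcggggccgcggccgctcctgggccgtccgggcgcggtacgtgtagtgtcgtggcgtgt

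The 5 were chosen with their letters known, so that each holds CCAAT is no finding: there is 1 in Cyp51 and Insig1, 2 in Idi1 and Nsdhl, and 3 in Hsd17b7. Among sterol genes not shown, the same stretch of Abcg5 and that of the other Pmvk start hold 0. Windows of 300 bases, from 250 before to 50 after a start, were available for 26 of the 32 genes called higher and 14 of the 16 called lower, and both strands were searched. CCAAT was found for 19 of the 26 risers (73.1%) and 6 of the 14 fallers (42.9%), against 42.3% of 6040 measured genes. The GC box GGGCGG was found for 73.1% of risers, 7 of the 14 fallers and 65.3% of measured genes. The E-box CACGTG was found for 3 risers (11.5%), namely Hsd17b7, Insig1 and Sc5d, for 1 faller (7.14%) and for 10.8% of measured genes. The sterol element pattern TCACNCCAC was found for 0 risers and 0 fallers, and for 1.52% of measured genes. These shares describe letters in short windows, and a match is not a binding site.

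Cholesterol synthesis was the list with the most calls. Of 21 enzymes on it 7 were measured, and all 7 rose, with a median change of 2.72 against -0.02 over all genes; at the background rate 0.338% of probe sets rose. Liver is a mixture, so more RNA per cell and more cells of a type cannot be told apart here. Pmvk, which phosphorylates mevalonate phosphate, read 6.86 and 6.29 in wild type and 9.64 and 9.21 in TgSREBP-2. Both transgenic arrays lay well above both controls, a rise of 2.85 ± 0.25 (limma standard error, n = 2 arrays a group; 7.2-fold; adjusted p = 0.00056). Its other probe set (165157_r_at) was dim and read -0.20, so the mean of the pair rose by 1.32 and the list median became 1.49. Idi1, which isomerises isopentenyl diphosphate in the following part of the mevalonate pathway, read 5.61 and 5.46 in wild type and 8.19 and 8.45 in TgSREBP-2. Its rise of 2.79 ± 0.16 (6.91-fold; limma adjusted p = 2.7e-05) was among the best supported.

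After squalene the pathway turns to sterols. Lss closes the ring to lanosterol, and read 7.72 and 7.80 in wild type and 9.33 and 9.06 in TgSREBP-2. It had one of the smaller rises of the pathway, 1.44 ± 0.15 (2.71-fold; limma adjusted p = 0.0017). Cyp51, which removes the first methyl group of lanosterol, read 5.28 and 4.91 against 7.87 and 7.77. It went from a level below the array median to one far above it, by 2.72 ± 0.15 (6.61-fold; limma adjusted p = 2.7e-05). Nsdhl and Hsd17b7 act in turn when the other methyl groups leave. Nsdhl read 5.94 and 6.14 against 7.69 and 7.37, a rise of 1.49 ± 0.13 (limma adjusted p = 0.00055). Hsd17b7 read 6.16 and 5.56 against 8.60 and 9.17, which gave the highest change of all tested probe sets, 3.02 ± 0.32 (8.11-fold; limma adjusted p = 0.0014), though its duplicates differed by more than those of Idi1 or Cyp51. Sc5d, the desaturase that makes the ring double bond near the end, read 7.33 and 7.06 against 8.29 and 8.35, a rise of 1.13 ± 0.17 (limma adjusted p = 0.015). The call of Sc5d was lost without any 1 of the 4 arrays (adjusted p between 0.06 and 0.19). The other 6 kept theirs in each case. Lbr, the lamin B receptor, which also has sterol reductase activity and was on no list, rose by 0.61 ± 0.10 (limma adjusted p = 0.036), a call lost without any 1 array (adjusted p up to 0.38). The branches that use the same isoprenoids for ubiquinone, dolichol and protein prenylation had 0 calls among 12 measured genes by limma. Only 0.5% of all probe sets were called, so that count does not set these genes apart. Their changes ran from -0.37 (Trit1) to 0.18 (Zmpste24), with a median of -0.08. Ggps1, which makes geranylgeranyl diphosphate, read -0.12.

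**Figure D2:**
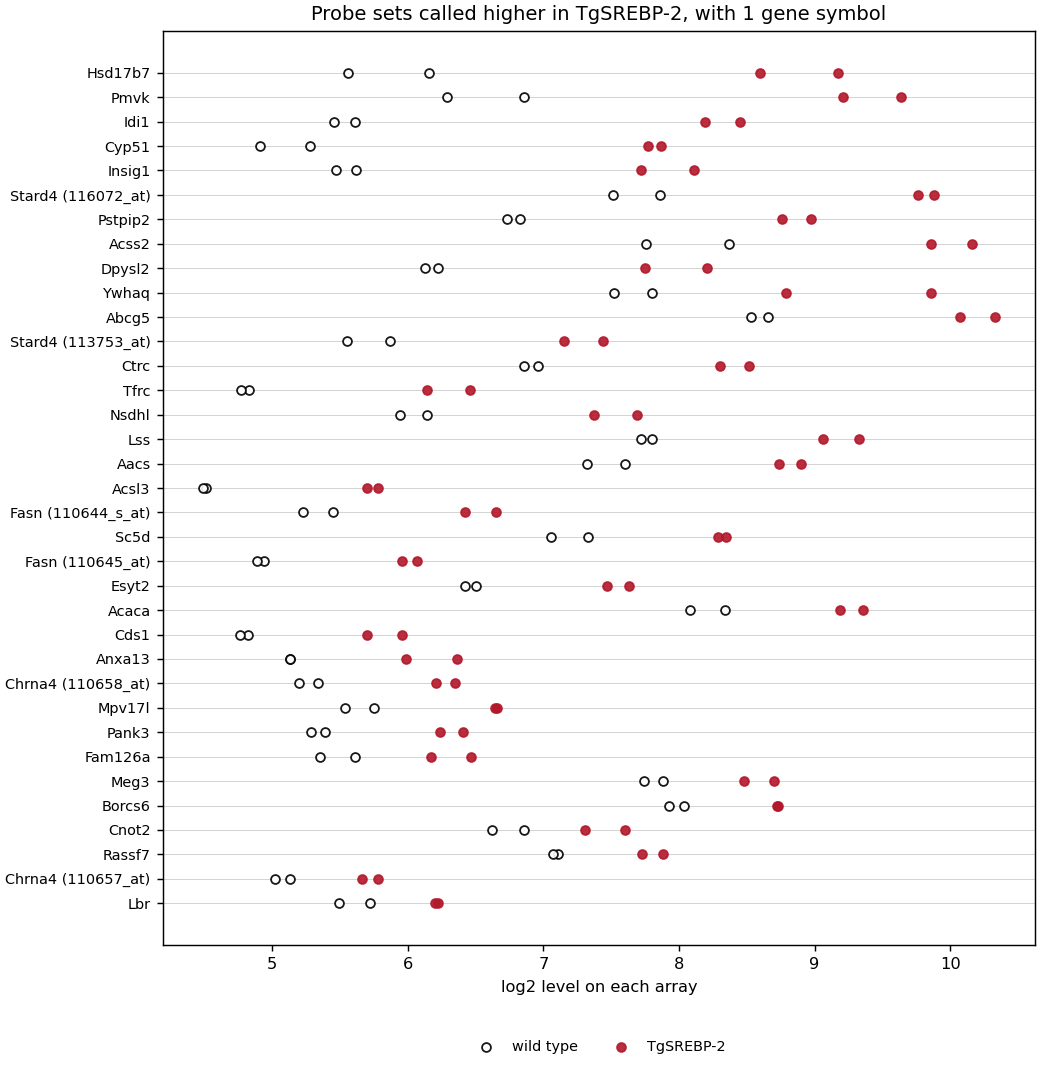
Levels of the probe sets called higher in TgSREBP-2 that have 1 gene symbol. The x axis is the log2 level; open circles are the 2 wild type arrays and filled circles the 2 TgSREBP-2 arrays, and rows are ordered by change. In every row the TgSREBP-2 arrays lie to the right, with the gap widest for Hsd17b7 (3.02) and narrowest for Lbr (0.61).

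Among the proteins that control SREBP itself, Insig1 was the 1 of 12 measured that rose, against 0.338% of all probe sets. Insig1 holds SCAP in the endoplasmic reticulum when sterol is plentiful. It read 5.62 and 5.47 in wild type and 7.72 and 8.11 in TgSREBP-2, a rise of 2.36 ± 0.24 (5.15-fold; limma adjusted p = 0.0011). Its paralogue Insig2 was at 10.48 and 9.86 against 9.74 and 9.31, a change of -0.64 ± 0.25 (adjusted p = 0.55, limma) that did not pass. Scap read 8.79 and 8.51 against 9.16 and 8.87, also without a call (0.37 ± 0.18). The other uncalled members, among them Sec24a (-0.33), Erlin1 (0.08), Faf2 (0.13) and Erlin2 (0.16), lay within -0.64 and 0.37, and the list median was 0.11.

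Of 16 measured genes of sterol uptake, transport and storage, Stard4 and Abcg5 rose, against 0.338% of all probe sets. Stard4 carries cholesterol through the cytosol. Its brighter probe set read 7.86 and 7.51 in wild type and 9.88 and 9.76 in TgSREBP-2 (2.14 ± 0.20, 4.4-fold; limma adjusted p = 0.00084). The dimmer one rose as well, by 1.58 ± 0.23, though that call held only without the second TgSREBP-2 array (adjusted p up to 0.18 otherwise). Abcg5 is one partner of the pump that sends sterols into bile. It read 8.66 and 8.53 against 10.33 and 10.07, a rise of 1.61 ± 0.15 (3.05-fold; limma adjusted p = 0.00081). The levels of the next brightest members did not pass: Stard5 (0.13), Scarb2 (-0.50), Mttp (-0.01), Tmem97 (-0.09), Osbpl2 (-0.04) and Gramd1b (0.19), and the list median was 0.07. Mttp, which loads lipid onto lipoproteins, had discordant probe sets. The brighter one read 8.24 and 8.14 against 8.18 and 8.19. The dim one (164582_f_at), of a kind that can match a family of sequences, read 5.50 and 5.25 against 3.51 and 3.86, the strongest called fall (-1.70 ± 0.20; limma adjusted p = 0.0033, and 0.06 without the first wild type array).

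Genes that supply acetyl units also rose. Acss2, which makes acetyl-CoA from acetate in the cytosol, read 8.37 and 7.76 in wild type and 10.16 and 9.86 in TgSREBP-2 (1.95 ± 0.21, 3.87-fold; limma adjusted p = 0.002). Aacs activates acetoacetate and read 7.60 and 7.32 against 8.90 and 8.74 (1.36 ± 0.17, limma adjusted p = 0.0039). The Aacs call was lost without the second wild type array (adjusted p = 0.073) or the first TgSREBP-2 array (0.063). These were 2 of 7 measured members of the supply list, whose median was 0.52, while 0.338% of all probe sets rose. Bdh1 (0.52), Mpc1 (0.02), Me2 (-0.10), Cs (-0.34) and Me1 (0.81 ± 0.29) did not pass. Pank3, a kinase at the start of coenzyme A synthesis, read 5.39 and 5.29 against 6.24 and 6.41 (0.99 ± 0.17, limma adjusted p = 0.034). Another Pank3 probe set read 0.57 and the third 0.00, and the call was lost without any 1 array (adjusted p up to 0.32).

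Fatty acid synthesis moved in part. Of 19 measured genes 3 rose and 0 fell by limma, against 0.338% and 0.161% of all probe sets, and the list median was 0.11. Acaca, the carboxylase that makes malonyl-CoA, read 8.34 and 8.08 in wild type and 9.36 and 9.19 in TgSREBP-2 (1.06 ± 0.14, 2.09-fold; limma adjusted p = 0.0048). Fasn, the synthase that follows, read 5.45 and 5.23 against 6.65 and 6.42 on its brighter probe set (1.20 ± 0.16, limma adjusted p = 0.0066). Its dimmer probe set gave 1.10 ± 0.11, so both probe sets showed a rise slightly over 2-fold. Acsl3, which activates long fatty acids, read 4.51 and 4.49 against 5.70 and 5.78 (1.24 ± 0.15, limma adjusted p = 0.0033). Its other probe set read -0.20, and the mean of both did not reach 1.5-fold (0.52). The calls of Acaca and of the brighter Fasn probe set were lost without the second wild type array (adjusted p = 0.085 and 0.11) and the first TgSREBP-2 array (0.066 and 0.092). That of Acsl3 was lost without either wild type array (0.052 and 0.054), while the dimmer Fasn probe set was called in each case. Fads2, the desaturase of polyunsaturated fatty acids, read 9.51 and 9.36 against 10.18 and 10.09 and did not pass (0.70 ± 0.14, adjusted p = 0.093, limma). Its dimmer probe set changed in the same direction, by 1.0, and lay just outside the threshold (adjusted p = 0.057, limma). Fads6 (0.05), Acacb (-0.14), Hacd1 (-0.26), Tlcd1 (0.23) and Elovl1 (0.10) did not pass either.

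Among 26 genes of glycerolipid and phospholipid synthesis 1 rose and 1 fell, against 0.338% and 0.161% of all probe sets, and the median was -0.01. Cds1, which makes the CDP-diacylglycerol from which phosphatidylinositol is built, read 4.82 and 4.76 in wild type and 5.70 and 5.96 in TgSREBP-2 (1.04 ± 0.13, limma adjusted p = 0.0037). Its call was lost without either wild type array (0.052 and 0.068), and its other probe set changed in the same direction without a call (0.50). Etnppl, which breaks down phosphoethanolamine, read 9.30 and 9.01 against 8.03 and 8.03 (-1.13 ± 0.13, limma adjusted p = 0.0021) and was called without each array in turn. Agpat2 (-0.30), Pcyt2 (0.24), Cds2 (-0.20), Lpin2 (0.26), Mogat2 (-0.10) and Lpin1 (-0.06), the brightest others, did not pass. In fatty acid oxidation 1 of 11 fell and 0 rose, with a median of 0.02. That gene was Acot1, a thioesterase that splits acyl-CoA, at 7.16 and 6.93 against 5.63 and 6.16 (-1.15 ± 0.18, limma adjusted p = 0.019). The call held only without the second TgSREBP-2 array (adjusted p up to 0.28 otherwise). Ppara, the receptor that drives this pathway, read -0.35 without a call.

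Other rises lay outside the lists. Pstpip2, an adaptor that binds membranes and actin, read 6.83 and 6.73 in wild type and 8.97 and 8.76 in TgSREBP-2 (2.09 ± 0.12, 4.25-fold; limma adjusted p = 3.3e-05). Its other probe set, which was dim, read 0.28. Dpysl2, a cytoskeletal protein known from growing axons, read 6.22 and 6.13 against 7.75 and 8.21 (1.81 ± 0.17, 3.5-fold; limma adjusted p = 0.00087). Pstpip2 and Dpysl2 thus changed as much as several sterol genes, and neither call was lost when single arrays were omitted. The same was true of Anxa13, an annexin (1.04 ± 0.12) and of one Chrna4 probe set (1.01 ± 0.11). Chrna4 encodes a nicotinic receptor subunit, and a second probe set assigned to it rose by 0.64 ± 0.12 while the brightest read -0.01. Esyt2, which tethers the endoplasmic reticulum to the plasma membrane and moves lipid between them, rose by 1.09 ± 0.14 (limma adjusted p = 0.0054), a call lost without either wild type array (0.063 and 0.089). Mpv17l (1.01 ± 0.17), Fam126a (0.84 ± 0.15), Rassf7 (0.71 ± 0.13) and the weaker Chrna4 probe set were called with all 10 arrays in the fit, but not when any 1 of the 4 was left out. The brighter Fam126a probe set read 0.29 and the third 0.00, and their mean was not called (0.38). Borcs6, a part of the complex that positions lysosomes, rose by 0.74 ± 0.09, a call lost without the first wild type array (0.075).

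Some rises came from probe sets whose suffix marks incomplete or shared probes. Of the 42 rising probe sets 9 (21.4%) carried such a letter, against 13.8% of all, among them that of Hsd17b7 (162726_i_at) and the brighter one of Fasn (110644_s_at). Ywhaq, a 14-3-3 protein, was measured by one (164627_r_at), at 7.52 and 7.80 in wild type and 8.79 and 9.86 in TgSREBP-2. Its duplicates differed more than those of any other riser shown, and the change of 1.66 ± 0.27 became 2.20 with only the second TgSREBP-2 array and 1.13 with only the first. Its call was lost without the first (adjusted p = 0.31) or the second wild type array (0.13). Meg3, a long noncoding RNA (0.78 ± 0.11), and Cnot2, of the deadenylase complex (0.72 ± 0.13), were of the same kind, and each call held only without the second TgSREBP-2 array. The other 3 Meg3 probe sets read 0.01, 0.26 and 0.18.

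Tfrc, the transferrin receptor, was the 1 of 9 genes of iron handling that rose, against 0.338% of all probe sets. It read 4.83 and 4.77 in wild type and 6.14 and 6.46 in TgSREBP-2 (1.5 ± 0.23, 2.83-fold; limma adjusted p = 0.016), and the call was lost without any 1 of the 4 arrays (adjusted p between 0.066 and 0.17). The 3 control probe sets for the mouse transferrin receptor did not show this shift: 5.25 and 5.27 against 5.48 and 5.38 at the 3 prime end, 4.18 and 4.12 against 4.16 and 4.18 at the 5 prime end, and 4.46 and 4.50 against 4.33 and 4.60 in the middle. Fth1 (-0.03), Slc40a1 (-0.28), Trf (-0.02), Slc25a37 (0.32), Steap3 (-0.08) and Cybrd1 (-0.19) did not pass. Tfrc also stood on the erythroid marker list, where it was the sole gene measured.

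Markers of pancreas differed between the pools. Ctrc, a digestive protease of acinar cells, read 6.96 and 6.86 in wild type and 8.52 and 8.30 in TgSREBP-2 (1.51 ± 0.10, 2.84-fold; limma adjusted p = 8.9e-05), called without each array in turn. Cela3b read 10.54 and 10.12 against 11.16 and 10.76, and Cpb1 10.01 and 9.53 against 10.62 and 10.19. Each of these changed by 0.63 without a call, and their arrays did not overlap. The mean level of the 3 measured acinar genes, of 27 listed, was 9.17 and 8.84 in wild type, 10.1 and 9.75 in TgSREBP-2, and 6.11 and 6.07 in TgSREBP-1a. Cela3b and Cpb1 read -3.84 and -4.67 in TgSREBP-1a against wild type, and -1.89 and -3.21 in Scap-/- against its own. Ctrc stayed near 0 in both, at -0.22 and -0.13. Acinar markers thus moved with the groups but not together, and their part in the other changes was not tested. Among the remaining marker lists limma called 0 of 6 endothelial genes, with a median of -0.09, and 0 of the 2 genes measured for each of macrophages, stellate cells, cholangiocytes and lymphocytes. With 0.5% of all probe sets called, these counts cannot show that cell content was equal. Neutrophil, adipocyte and muscle markers were not measured.

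The falls were smaller and came from several areas of liver metabolism. Over all probe sets 0.161% fell, which is the share to set beside the list counts that follow. Moxd1, a relative of the copper monooxygenases, read 7.79 and 7.81 in wild type and 6.48 and 6.48 in TgSREBP-2 (-1.32 ± 0.11; limma adjusted p = 0.00041), with nearly identical duplicates. It was the 1 call among 12 genes listed as xenobiotic and glutathione enzymes, although it is a copper monooxygenase relative rather than one of those. The list median was -0.33. Ugt2b1 (-1.10 ± 0.22) and Aox3 (-0.99 ± 0.25) were low without passing (adjusted p = 0.087 and 0.23, limma). The brightest of the others were Ces1g (-0.44), Gstp3 (0.03), Sult2a8 (-0.64) and Ces2a (-0.40). Ddah1, which degrades the nitric oxide synthase inhibitor dimethylarginine, fell on all 3 of its probe sets. The brightest read 7.23 and 6.93 against 5.86 and 5.95 (-1.17 ± 0.13; limma adjusted p = 0.0025), and the others fell by 0.96 and 0.81. The brightest was called without each array in turn, while the others lost their calls in 2 and 3 of the 4 cases (adjusted p up to 0.31).

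Ppp1r3c, which brings a phosphatase to glycogen, read 8.14 and 7.78 in wild type and 6.84 and 6.85 in TgSREBP-2 (-1.11 ± 0.14; limma adjusted p = 0.0037, and 0.053 without the first wild type array). It was the 1 call among 7 genes of glucose metabolism, where Pygl (-0.37), Foxo1 (0.19), Gys2 (-0.11), Gpd2 (-0.23), Irs1 (0.11) and Ppp1r3b (-0.03) did not pass. Hsd17b6, a retinol and steroid dehydrogenase, read 7.26 and 6.79 against 6.19 and 5.87 (-1 ± 0.18; limma adjusted p = 0.039, up to 0.42 with 1 array left out). It was the 1 call among 9 genes listed under bile acid synthesis and transport, although it is not a bile acid enzyme. Cyp27a1 (-0.42), Abcb11 (-0.58), Nr0b2 (-0.20), Slco1a4 (0.58), Abcc2 (0.06) and Cyp39a1 (0.93 ± 0.21, adjusted p = 0.12 by limma) did not pass. Steap4, a metalloreductase induced in inflammation, read 10.55 and 10.48 against 9.73 and 9.51 (-0.89 ± 0.15; limma adjusted p = 0.033), and lost its call without any 1 array (adjusted p up to 0.34). It was the 1 call among 10 acute phase and complement genes, with a list median of -0.23. C6 passed the p threshold at -0.55 ± 0.10 (limma adjusted p = 0.044) but not 1.5-fold, and Itih4 (-0.15), C8b (-0.52), F10 (0.04), Fgl1 (0.37) and C8a (-0.02) did not pass.

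The remaining named falls were Gm4952 (-1.57 ± 0.28), the mitochondrial carrier Slc25a30 (-0.98 ± 0.17), the pseudogene Serpina4-ps1 (-0.87 ± 0.15), Shld1 (-0.75 ± 0.11), the oxidase gene Nox4 (-0.74 ± 0.13), the aldehyde dehydrogenase Aldh1b1 (-0.70 ± 0.10), the glycosyltransferase Ugt3a1 (-0.67 ± 0.10) and Abhd1 (-0.63 ± 0.10). Each of these 8 calls held in at most 1 of the 4 omissions of an array, and those of Gm4952, Nox4 and Ugt3a1 were lost in all 4 cases. For Gm4952 the other probe set read -1.10 (adjusted p = 0.062, limma). The other probe set of Nox4 read -0.19, and those of Abhd1 read -0.81, -0.01 and -0.11.

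**Figure D3:**
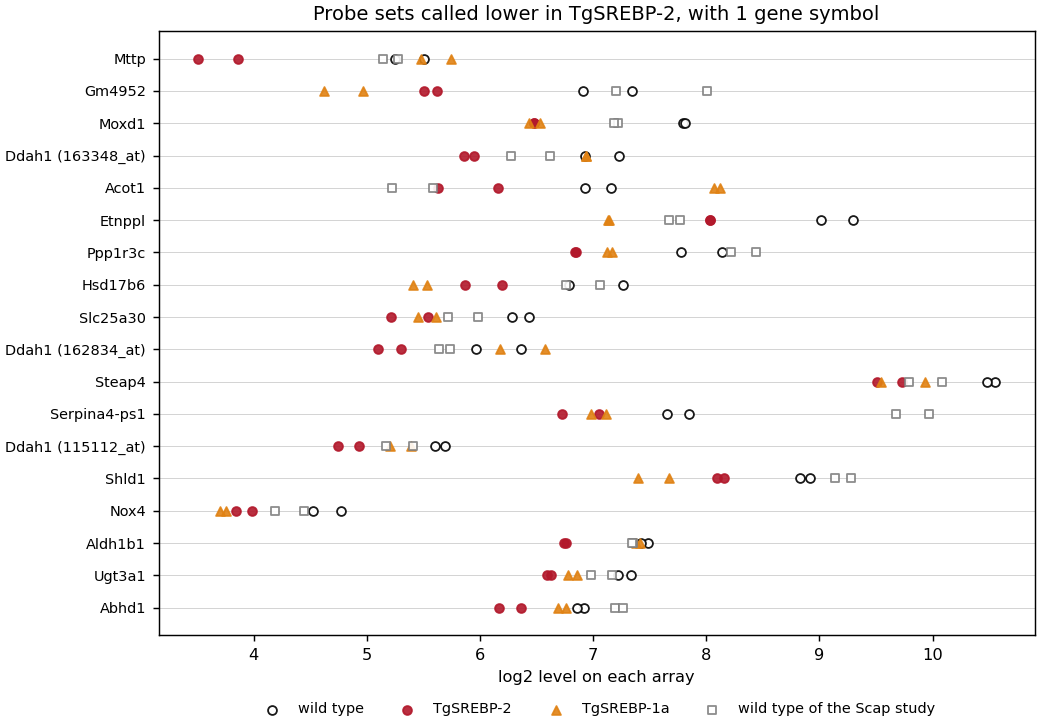
Levels of the probe sets called lower in TgSREBP-2 that have 1 gene symbol. The x axis is the log2 level; symbols stand for single arrays of 4 pools (wild type, TgSREBP-2, TgSREBP-1a and the wild type of the Scap study). TgSREBP-2 arrays lie below both wild type arrays of their study in each row, while for Acot1 (5.58 and 5.22) and Etnppl (7.77 and 7.67) the wild type of the Scap study lies lower still.

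In several lists no member was called, where 0.5% of all probe sets were. Of 20 measured genes of amino acid breakdown 0 were called by limma, and 18 read below 0, with a median of -0.35 (-0.25 with the mean of all probe sets of a gene) against -0.02 over all genes, of which 56.0% read below 0. The brightest were Haao (-0.16), Uroc1 (-0.44), Gpt2 (-0.54), Cbs (-0.22), Pcca (0.02) and Ftcd (-0.39). The mean level of the 20 was 8.23 and 7.97 in wild type and 7.77 and 7.88 in TgSREBP-2, so the second arrays lay close together. Their median was also below 0 in TgSREBP-1a (-0.18) and Scap-/- (-0.26), each against its wild type. It was 0.03 in TgSREBP-2 against TgSREBP-1a. Of 9 genes of the unfolded protein response 0 were called, with a median of -0.10 and Hyou1 at -0.45, Edem1 at -0.16 and Ern1 at -0.49. Of 13 interferon-stimulated genes 0 were called, with a median of 0.06. The highest there was Bst2, at 8.71 and 8.33 against 9.51 and 9.28 (0.88 ± 0.21, adjusted p = 0.20 by limma), while Stat2 (-0.18), Oasl1 (0.29) and Parp14 (0.23) were nearer 0.

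**Figure D4:**
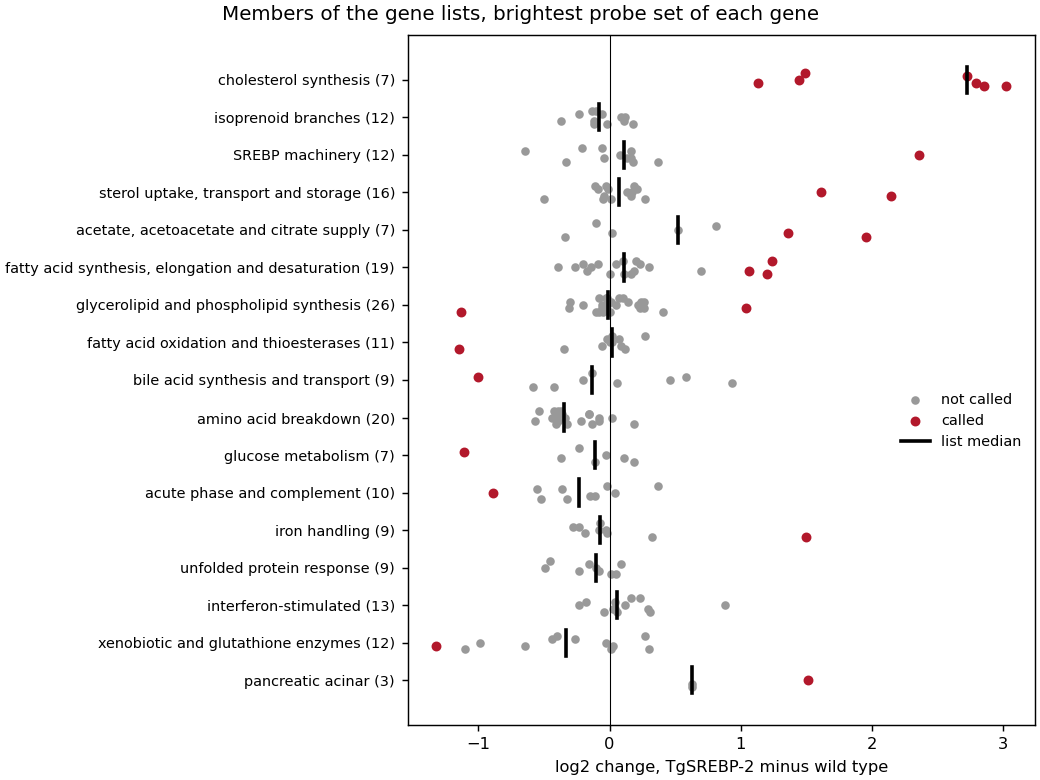
Change of each measured list member, by list. The x axis is the log2 change, TgSREBP-2 minus wild type, of the brightest probe set of a gene; red points were called, grey ones were not, black bars are list medians, and the number of measured genes stands in parentheses. All 7 genes of cholesterol synthesis lie above 1, while most other lists have medians between -0.35 and 0.11 with 0 to 3 called members.

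Whether the lines differed for these genes was asked by setting TgSREBP-2 directly against TgSREBP-1a, which leaves out the wild type arrays. Over all probe sets 231 were called (1.86%), 84 higher in TgSREBP-2 (0.677%) and 147 lower (1.18%). Of the 42 probe sets that rose over wild type in TgSREBP-2, 12 were higher than in TgSREBP-1a, 6 were lower and 24 were not called. The TgSREBP-2 arrays enter both comparisons, which favours members that are high there. In cholesterol synthesis Idi1 stood higher in TgSREBP-2, by 1.18 ± 0.16 (limma adjusted p = 0.0027, and 0.053 without the first TgSREBP-1a array). Hsd17b7 (1.38 ± 0.32), Cyp51 (0.61 ± 0.15), Sc5d (0.47 ± 0.17), Nsdhl (0.44 ± 0.13), Pmvk (-0.13 ± 0.25) and Lss (-0.17 ± 0.15) did not differ by the test (adjusted p from 0.055 to 0.86). Insig1 (-0.67 ± 0.24), Acss2 (-0.54 ± 0.21), Aacs (0.03 ± 0.17), Abcg5 (0.27 ± 0.15) and Stard4 (0.46 ± 0.20) were not called either. Against the same wild type arrays, 6 of the 7 cholesterol synthesis genes were also called higher in TgSREBP-1a, where 1.36% of probe sets were. Their list median there was 1.61.

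Of 19 measured genes of fatty acid synthesis 7 were lower in TgSREBP-2 than in TgSREBP-1a, 0 were higher and 12 were not called by limma. Acaca was lower by 1.38 on the log2 scale (-1.38 ± 0.14; limma adjusted p = 0.00044), the brighter Fasn probe set had -1.64 ± 0.16 and Acsl3 -0.93 ± 0.15. Pstpip2 (-0.92 ± 0.12) and the Chrna4 probe set 110658_at (-1.48 ± 0.11) were lower as well. Higher in TgSREBP-2 were Cds1 (1.07 ± 0.13), Tfrc (1.38 ± 0.23), Ctrc (1.72 ± 0.10), Ywhaq (2.06 ± 0.27), Cnot2 (0.94 ± 0.13), Meg3 (0.92 ± 0.11) and Anxa13 (0.61 ± 0.12). For these 7 none was called in TgSREBP-1a against wild type, where 2.18% of probe sets were called, with changes between -0.40 (Ywhaq) and 0.43 (Anxa13). Of the 12 probe sets higher in TgSREBP-2 than in both other pools of the study, 6 carried a suffix letter. Acinar markers stood higher in TgSREBP-2 than in TgSREBP-1a by 5.30 (Cpb1) and 4.47 (Cela3b). Hepatocyte markers averaged 9.52 and 9.38 in TgSREBP-1a against 10.77 and 10.37 in TgSREBP-2. Of these, C8a (2.58) and Fetub (1.85) were called higher in TgSREBP-2, while Hnf4a (0.18) and Apoa1 (-0.15) were not called. The part of acinar or hepatocyte markers in these differences was not tested. Among the falls, Mttp (164582_f_at, -1.93 ± 0.20), Acot1 (-2.20 ± 0.18), Ddah1 (-1.03 ± 0.13 on the brightest probe set) and Aldh1b1 (-0.65 ± 0.10) were lower in TgSREBP-2. Etnppl (0.89 ± 0.13) and Shld1 (0.59 ± 0.11) were higher there, and against wild type they read -2.02 and -1.34 in TgSREBP-1a. Of the differences in these paragraphs, those of Idi1, Pstpip2, Cnot2 and Etnppl were lost without the first TgSREBP-1a array (adjusted p between 0.053 and 0.056), and those of Acsl3, Tfrc, Anxa13, Shld1 and Aldh1b1 in 2 or 3 of the 4 cases (up to 0.18).

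Liver without SCAP, which cannot process its own SREBPs, was set beside the transgenic line on arrays that were not shared. Of the 42 rising probe sets 36 read below 0 in Scap-/- liver, against 45.6% of all probe sets, and their median change was -0.4 against 0.02. Called lower in Scap-/- were 12 of them, which is 28.6% of the rises in TgSREBP-2 and 37.5% of the 32 falls in Scap-/-, at a background of 0.258%. The 12 held Insig1 (-2.53 ± 0.24), Hsd17b7 (-2.39 ± 0.32), Acss2 (-2.33 ± 0.21), Idi1 (-2.26 ± 0.16), Pmvk (-2.20 ± 0.25), Cyp51 (-1.57 ± 0.15), Aacs (-1.08 ± 0.17), Nsdhl (-0.95 ± 0.13), both Stard4 probe sets (-1.77 and -1.43) and 1 probe set without a symbol. The last was Sc5d (-1.17 ± 0.17; limma adjusted p = 0.018). Acinar markers also differed here, with a mean level of 8.23 and 8.02 in the wild type and 6.43 and 6.32 in Scap-/-. That gap came from Cela3b (-1.89) and Cpb1 (-3.21), and the part of these markers was not tested. Lss (-0.59 ± 0.15), Abcg5 (-0.60 ± 0.15), Acaca (-0.71 ± 0.14), Pank3 (-0.76 ± 0.17) and Mpv17l (-0.80 ± 0.17) read below 0 without a call. Pstpip2 (-0.19 ± 0.12) and Dpysl2 (-0.24 ± 0.17) lay near 0, although both were among the strongest rises with the transgene. So did Tfrc (0.28), Cds1 (0.11), Ctrc (-0.13) and Ywhaq (-0.16). Of the 20 falling probe sets 17 read below 0 in Scap-/- too, so the sign there did not set rises apart from falls. Their median change was -0.19. Called lower were 2 of them, Serpina4-ps1 (-1.22 ± 0.15) and a probe set without a symbol (113054_at, -1.75 ± 0.25).

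**Figure D5:**
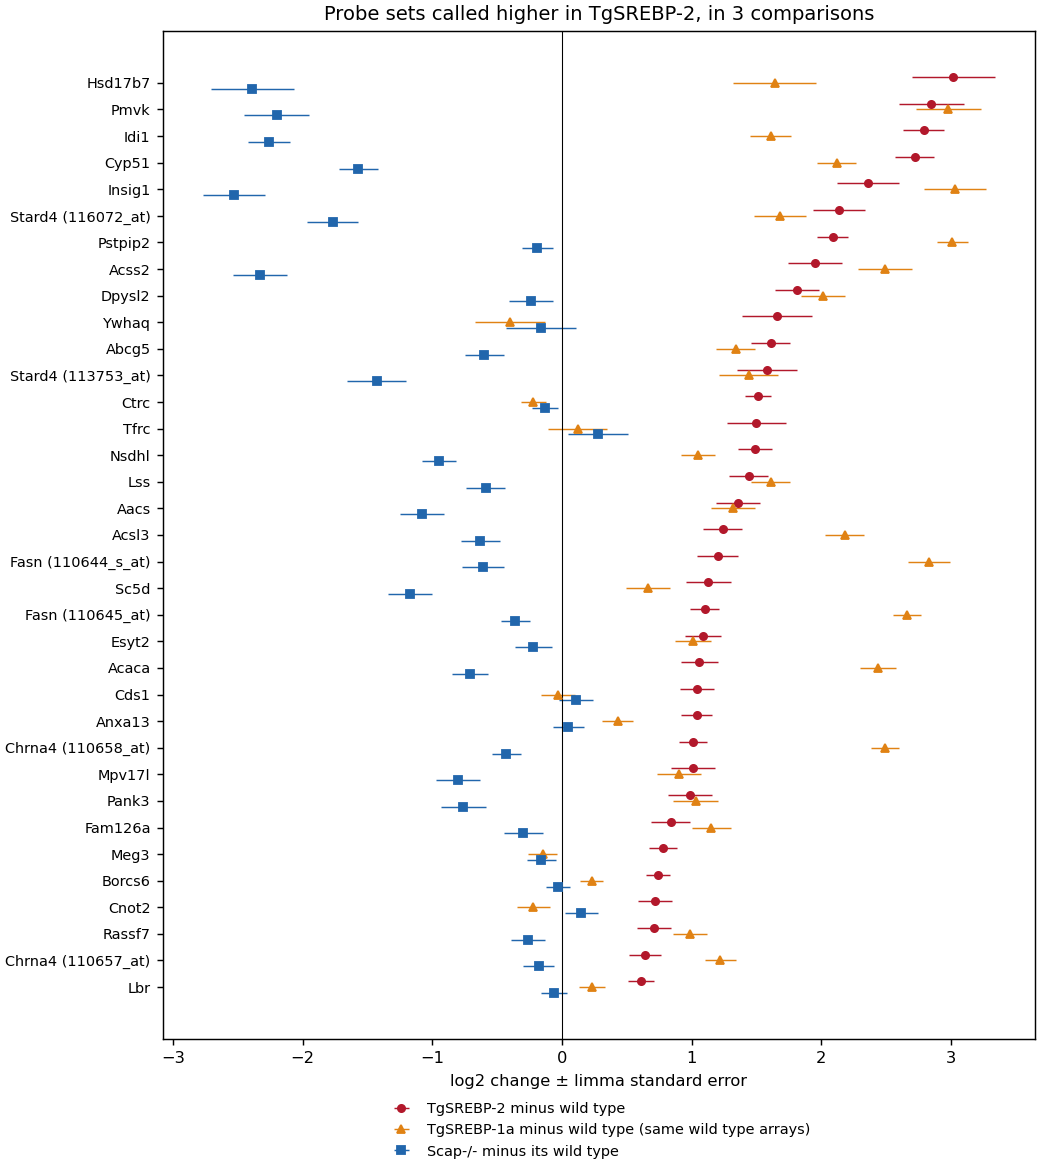
The probe sets called higher in TgSREBP-2 in 3 comparisons. The x axis is the log2 change with its limma standard error: circles are TgSREBP-2 and triangles TgSREBP-1a, each minus the same wild type arrays, and squares are Scap-/- minus its own wild type. Idi1 reads 2.79, 1.61 and -2.26, while Pstpip2 reads 2.09, 3.01 and -0.19 and Ctrc 1.51, -0.22 and -0.13.

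The size of a rise also depends on the level of the control pool. Wild type littermates of the transgenic lines were compared with the wild type mice of the Scap study, which differed in diet, age and injections, and 0.508% of probe sets were called, 0.355% of those tested lower in the littermates. Among these were 5 of the 7 measured cholesterol synthesis genes, namely Idi1 (-1.83), Pmvk (-1.66), Sc5d (-1.6), Cyp51 (-1.23) and Nsdhl (-0.88). Hsd17b7 (-1.47) and Lss (-0.65) were not called. Acss2 (-1.65), Insig1 (-1.31) and Aacs (-0.91) were called lower in the littermates too. In the wild type of the Scap study Idi1 read 7.57 and 7.16, between the wild type and TgSREBP-2 arrays of the transgenic study. Sc5d read 9.09 and 8.51 there, above both TgSREBP-2 arrays, and Acss2 read 9.84 and 9.58, just below them. Cyp51 (6.43 and 6.21), Pmvk (8.50 and 7.97) and Hsd17b7 (7.77 and 6.89) stayed below both TgSREBP-2 arrays. Of the falls, Etnppl (7.77 and 7.67) and Acot1 (5.58 and 5.22) were lower than in TgSREBP-2. Diet, age, injections and pool cannot be told apart.

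Among probe sets with 1 symbol and at least 1.5-fold, those nearest the adjusted p threshold changed by 1.52- to 1.97-fold. Just inside it lay Slc25a30, Rassf7 and the Chrna4 probe set 110657_at (adjusted p from 0.041 to 0.049), and just outside Hsd17b6 (165376_f_at, -0.61), Abhd1 (110067_at, -0.81) and Stk38l (163218_at, 0.62), from 0.053 upward. With 1 array left out in turn, 19 of the 53 called probe sets with 1 symbol were called in all 4 cases and 12 in 0. The 19 stood for Hsd17b7, Pmvk, Idi1, Cyp51, Nsdhl, Lss, Insig1, Stard4, Abcg5, Acss2, Fasn, Pstpip2, Dpysl2, Ctrc, Chrna4, Anxa13, Moxd1, Ddah1 and Etnppl.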

How the data were processed

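The authors deposited log2 expression values per probe set from Affymetrix MG_U74Bv2 arrays, made with RMA per the submitters' processing notes (no version given), while the design text names MICROARRAY SUITE 5.0. RMA corrects background, equalises array distributions and summarises probes, which compresses changes of dim probe sets. Using limma 3.58.1 (R 4.3.3), all 10 arrays entered a single linear model with a mean for each group, so the spread between duplicates was pooled over the 5 groups before eBayes. The number of arrays limits the precision. Symbols came from the platform annotation: 10581 probe sets had 1 symbol (7542 genes), 178 several and 1652 none. RefSeq changed 0 of them. Lists used the brightest probe set of each gene. The lists, the naming rule and the members were chosen with earlier results of these data known. Named were all called probe sets with 1 symbol, and up to 6 uncalled members per list by mean level, with some others named after their values were seen. Promoters are RefSeq windows, since no genome build is named for the arrays. The fit was tested on simulated data with independent noise. Those data held no differences between pools beyond the planted changes, so the test cannot vouch for the calls in these arrays. Alternatives were other sets of arrays, a replicate block, renormalization, centring, a filter on dim probe sets, an intensity trend, array weights and other thresholds. One promoter element and its looser match are not reported here.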

Additional observations from a re-analysis of the deposited data

Results flagged for a closer look

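The probe sets below were called in TgSREBP-2 against wild type and also differed between the transgenic lines by limma. With 1 pool a line, these differences are between pools, measured against hybridisation error. The values are log2 differences, TgSREBP-2 minus TgSREBP-1a.

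Higher in TgSREBP-2 were Ywhaq (2.06), Ctrc (1.72), Tfrc (1.38), Idi1 (1.18), Cds1 (1.07), Cnot2 (0.94), Meg3 (0.92), Etnppl (0.89), Anxa13 (0.61) and Shld1 (0.59). Lower in TgSREBP-2 were Acot1 (-2.20), Mttp (-1.93 on 164582_f_at), Fasn (-1.64 and -1.56 on its 2 probe sets), Chrna4 (-1.48 on 110658_at), Acaca (-1.38), Ddah1 (-1.18 and -1.03 on 2 of its probe sets), Acsl3 (-0.93), Pstpip2 (-0.92) and Aldh1b1 (-0.65). Acot1 had opposite signs against wild type, -1.15 in TgSREBP-2 and 1.05 in TgSREBP-1a.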

How the results depend on the processing

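The count of 62 calls in TgSREBP-2 became 101 under a replicate block by hybridisation number, which kept all 62, and 38 with a 2-fold minimum. It ranged from 25 to 124 with 1 array left out. Same-numbered arrays of wild type and TgSREBP-2 deviated together with r = 0.057. For the other comparisons r was 0.113 (TgSREBP-2 with TgSREBP-1a), 0.411 (TgSREBP-1a with wild type), 0.474 (both wild types) and 0.598 (Scap-/- with its wild type). The labels tie no batch to the number and each group has 2 arrays, so no comparison was treated as paired. Direct comparison of the lines gave 231 calls, 115 with a 2-fold minimum and from 87 to 384 with 1 array left out. It gave 306 with the replicate block. The counts of TgSREBP-2 calls under the other settings lay between 55 (brighter probe sets only) and 90 (6 arrays of the transgenic study), with 65 from only 4 arrays. Called genes of cholesterol synthesis ranged from 6 to 7. None of the named changes turned its sign under the alternatives run.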

Other observations

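Of the 62 called probe sets 7 had no symbol and 2 had several. The strongest rises among them were 164998_f_at, at 5.29 and 4.71 in wild type and 6.89 and 6.96 in TgSREBP-2 (1.93 ± 0.19), and 108752_at, at 7.91 and 7.70 against 9.80 and 9.51 (1.85 ± 0.16). The latter was called lower in Scap-/- as well (-1.60 ± 0.16, limma adjusted p = 0.0019). Both kept their calls without each array in turn. The strongest falls were 108571_at, assigned to both Ankhd1 and Eif4ebp3, at 8.79 and 8.38 against 6.79 and 7.08 (-1.65 ± 0.16), and 113054_at, at 8.66 and 8.18 against 6.81 and 7.08 (-1.47 ± 0.25). The call of 108571_at held without each array in turn, and that of 113054_at was lost without any 1 of the 4. The probe set shared by Apol9a and Apol9b, interferon-responsive genes, read 6.66 and 6.95 against 7.52 and 7.50 (0.70 ± 0.11, limma adjusted p = 0.017). Its call held only without the second wild type array.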
